A study of Homo sapiens with 9 samples.

Results

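The NF-κB family was followed in HMEC-1, an established line of human dermal microvascular endothelial cells, through the 10 genes that encode its subunits (NFKB1, NFKB2, REL, RELA and RELB), its IκB inhibitors (NFKBIA, NFKBIB and NFKBIE) and 2 deubiquitinases that restrain it (TNFAIP3 and CYLD). These genes were taken by symbol, with earlier results of these data known. All 10 were found among the 29740 genes of the counts and passed the filter on low counts, as did 14740 genes in all. RNA was sequenced from cells given 50 µM TMAO (trimethylamine N-oxide, a metabolite made from dietary nutrients through gut bacteria) for 24H or 48H, and from control cells without TMAO, with 3 libraries in each group. All groups were HMEC-1, and TMAO was given in serum-starved medium. The controls of both time-points form a single group and their time in culture is not known here, so that TMAO and time in culture cannot be told apart in the comparisons with controls, nor between the treated groups. The study speaks of independent experiments in general, the labels do not say whether the libraries of a group came from separate cultures, and p-values measure the spread between these libraries, which may be technical.

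NF-κB transcription factors are pairs of subunits that share a DNA-binding region. RELA, REL and RELB carry an activation domain, whereas the products of NFKB1 and NFKB2 are made as long precursors that are processed to p50 and p52. In resting cells the pairs are held by IκB proteins, whose phosphorylation by the IKK kinase complex leads to their breakdown and frees the dimers to enter the nucleus, which is the canonical route; the non-canonical route runs through the kinase NIK (MAP3K14), the processing of NFKB2 and its partner RELB. In endothelial cells the pathway is known for inducing leukocyte adhesion molecules and chemokines, and it also induces several of its own inhibitors, among them NFKBIA and TNFAIP3. These data are RNA levels, and neither protein, phosphorylation nor nuclear entry was analysed here.

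The feedback of NF-κB on its own genes is known to act through κB sites in their promoters, so the sequence before the start of 4 members is shown. The reference sequences came from RefSeq (GRCh38.p14), in which 8 of the 10 members had promoter windows of 250 bases before to 50 bases after a start. RELB and NFKBIE had no window, so nothing is said of their promoters. Each line gives the last 120 bases before the start, from 5′ to 3′ on the strand of the gene, and capitals mark the matches to the κB-type letters GGGNNTTNCC on either strand.
NFKBIA: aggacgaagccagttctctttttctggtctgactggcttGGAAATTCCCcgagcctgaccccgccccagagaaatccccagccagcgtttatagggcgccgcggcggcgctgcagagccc
TNFAIP3: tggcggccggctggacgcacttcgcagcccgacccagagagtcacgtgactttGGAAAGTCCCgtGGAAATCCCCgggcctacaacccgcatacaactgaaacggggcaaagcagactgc
REL: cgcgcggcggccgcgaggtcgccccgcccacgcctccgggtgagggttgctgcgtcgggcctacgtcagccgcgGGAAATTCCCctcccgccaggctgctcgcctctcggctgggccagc
NFKB1: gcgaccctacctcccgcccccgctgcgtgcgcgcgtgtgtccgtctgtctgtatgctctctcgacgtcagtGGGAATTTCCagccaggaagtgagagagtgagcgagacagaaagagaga

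These stretches lie at chr14:35404750-35404869 on the minus strand (NFKBIA), and at chr6:137867139-137867258 (TNFAIP3), chr2:60881454-60881573 (REL) and chr4:102501239-102501358 (NFKB1) on the plus strand. The match of NFKBIA began 81 bases before the start, that of REL 46 bases and that of NFKB1 49 bases before it, and TNFAIP3 had a pair of matches that began 67 and 55 bases before it. NFKB1 also had a window at another start, which held no match and is not shown (last 120 bases at chr4:102501814-102501933). The matched letters of NFKBIA and REL were the same, GGAAATTCCC. In all, 7 of the 8 members with a window held a match, in 9 of their 15 windows, against 1994 of 35116 windows of all genes (5.68%). NFKB2, NFKBIB and CYLD also had matches, among them 2 that overlap and began 78 and 77 bases before one of the starts of NFKB2, with another 107 bases before that start. RELA had none in its windows. The looser letters GGGNNNNNCC occurred in all 15 windows of the members and in 58.7% of all windows. A match describes letters in a window only. It is neither a bound site nor a cause of the values below.

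Total counts ranged from 25205756 to 36927373 per library. The share of 6 ribosomal RNA genes was 31.5% in TMAO 24H replicate 1 and 1.64% to 7.46% elsewhere. The comparisons below were repeated with these and any other ribosomal RNA genes matched by name removed, which changed no call of a member. The members had 113 or more counts in every library, with the fewest for REL (113 to 205), RELB (145 to 323) and TNFAIP3 (181 to 281) and the most for RELA (2445 to 3585). All 16 endothelial markers were detected, with summed levels of 3200 to 3710 CPM (counts scaled to a common library size) in controls, 2430 to 3470 at 24H and 2920 to 3200 at 48H. Of them, CLDN5, a tight-junction protein, was the lowest at 1.26 to 1.98 CPM. Among 8 leukocyte markers, 7 remained under 1 CPM in every library, with 0 counts of CD3E and MS4A1 and at most 0.0998 CPM of PTPRC. Among 8 fibroblast markers, 3 remained under 1 CPM in every library, namely DCN, LUM and PDGFRA. The collagen genes COL1A1 and COL1A2 were abundant. PDGFRB (32.3 to 52.6 CPM), COL3A1 (23 to 37.2 CPM) and FAP (2.24 to 4.42 CPM) were also detected. The summed level of the fibroblast markers was 967 to 1180 CPM in controls, 751 to 1080 at 24H and 641 to 704 at 48H. The summed level of 5 epithelial markers was 71.1 to 105 CPM in controls, 56.9 to 77.9 at 24H and 14.1 to 107 at 48H, the lowest value being that of TMAO 48H replicate 3. These CPM were scaled to all counts, ribosomal RNA included, which lowers marker values where the ribosomal share is high. TMAO 24H replicate 1, with a ribosomal share of 31.5%, was the lowest library at 24H for fibroblast (751 CPM) and epithelial markers (56.9 CPM). The part of these marker levels in the results was not tested.

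Levels were first compared between members in the control libraries, as normalised counts per kilobase of the longest transcript, with means ± SD over 3 libraries. RELA, the main activating subunit of the canonical route, was the most abundant at 966 ± 47.9. It was followed by NFKBIA (526 ± 45.1), which encodes IκBα, and NFKB1 (516 ± 29.2), whose ranges of 499 to 578 and 489 to 547 overlapped, so that their order is not set by these libraries. NFKB2 (343 ± 7.77), NFKBIB (284 ± 10.8), CYLD (206 ± 6.74) and NFKBIE (149 ± 8.08) followed, each below the previous one in every control library. RELB (76.5 ± 9.09), TNFAIP3 (42.9 ± 2.99) and REL (11 ± 1.06) had the lowest levels, again with no overlap between neighbours. REL also had the lowest normalised counts before division by length. With the median transcript length of each gene in place of the longest, RELA (4450) and REL (51.5) again stood at the ends, but NFKBIA (1020) came after NFKB1 (3060) and NFKB2 (1380), and CYLD (619) came before NFKBIB (580).

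**Figure D1:**
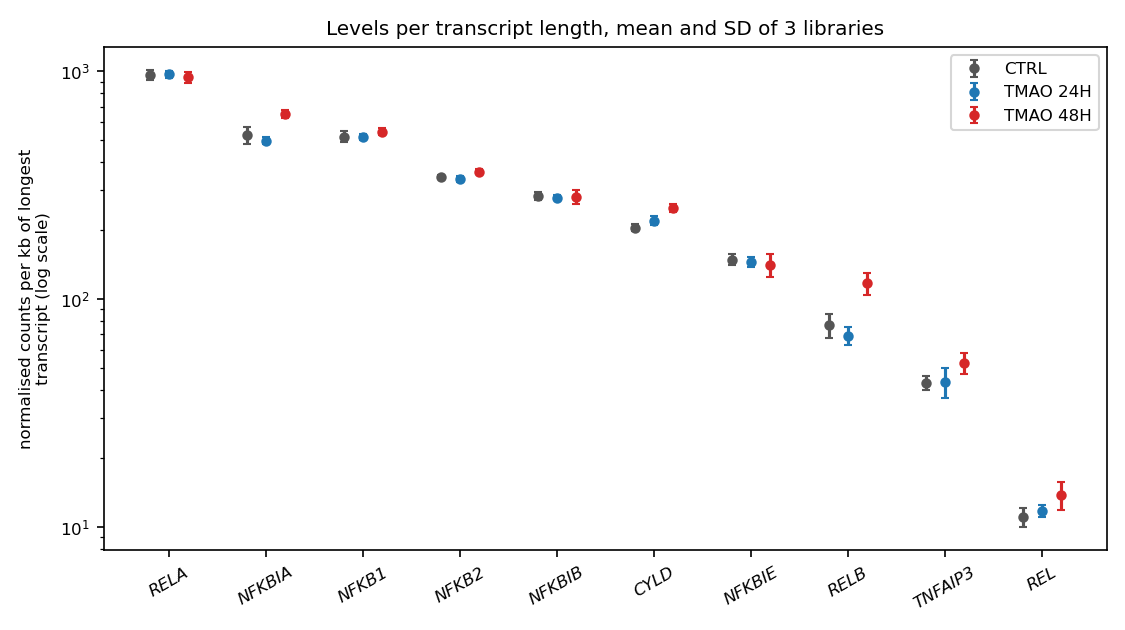
Levels of the 10 members in normalised counts per kilobase of the longest transcript (vertical axis, log scale), with means and SD of 3 libraries for CTRL, TMAO 24H and TMAO 48H. The order runs from RELA (966 in controls) to REL (11 in controls). The means of TMAO 48H lie above both other groups for NFKBIA, NFKB1, NFKB2, CYLD, RELB, TNFAIP3 and REL. Of these, NFKBIA, CYLD and RELB passed the test described below.

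Summed per kilobase over the 5 subunits, RELA made up 50.5 ± 0.785% of the subunit RNA in controls, NFKB1 27 ± 0.627%, NFKB2 17.9 ± 0.886%, RELB 4.01 ± 0.581% and REL 0.575 ± 0.0674% (SD, n = 3). At 24H these shares were 51 ± 0.603%, 27.1 ± 0.248%, 17.7 ± 0.654%, 3.61 ± 0.25% and 0.617 ± 0.0526%. At 48H the share of RELB was 5.91 ± 0.726% and that of RELA 47.6 ± 1.72%, while those of NFKB1, NFKB2 and REL were 27.5 ± 0.563%, 18.3 ± 0.501% and 0.697 ± 0.0922%. With the median transcript length the share of RELB was 2.29 ± 0.341% in controls, 2.06 ± 0.144% at 24H and 3.4 ± 0.426% at 48H. In bulk RNA, a change in the number of cells that express a gene and a change in RNA per cell cannot be told apart.

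The first comparison asked whether 24H of TMAO altered the RNA of the family. At 24H, 0 of the 10 members passed the test in edgeR's quasi-likelihood fit of all 9 libraries (adjusted p under 0.05), where 0.0950% of all tested genes passed and 0.0475% also changed at least 1.4-fold, the threshold of the study. DESeq2 called 0 members as well, and 0 members were under 0.05 before adjustment, against 7.24% of all genes. The members' log2 fold changes lay between -0.15 for RELB (SE 0.12, edgeR adjusted p = 0.873) and 0.10 for CYLD (SE 0.05, edgeR adjusted p = 0.712), with a median of -0.01 beside -0.00042 over all genes. CYLD was the 1 member whose 3 libraries at 24H (1807 to 1969 normalised counts) lay above all 3 controls (1689 to 1794), as 6.73% of all genes did. The 95% intervals were narrow for the abundant members, from -0.11 to 0.11 on the log2 scale for NFKB1 and from -0.10 to 0.12 for RELA, and wider for those with few counts, from -0.42 to 0.12 for RELB, from -0.26 to 0.28 for TNFAIP3 and from -0.19 to 0.38 for REL.

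**Figure D2:**
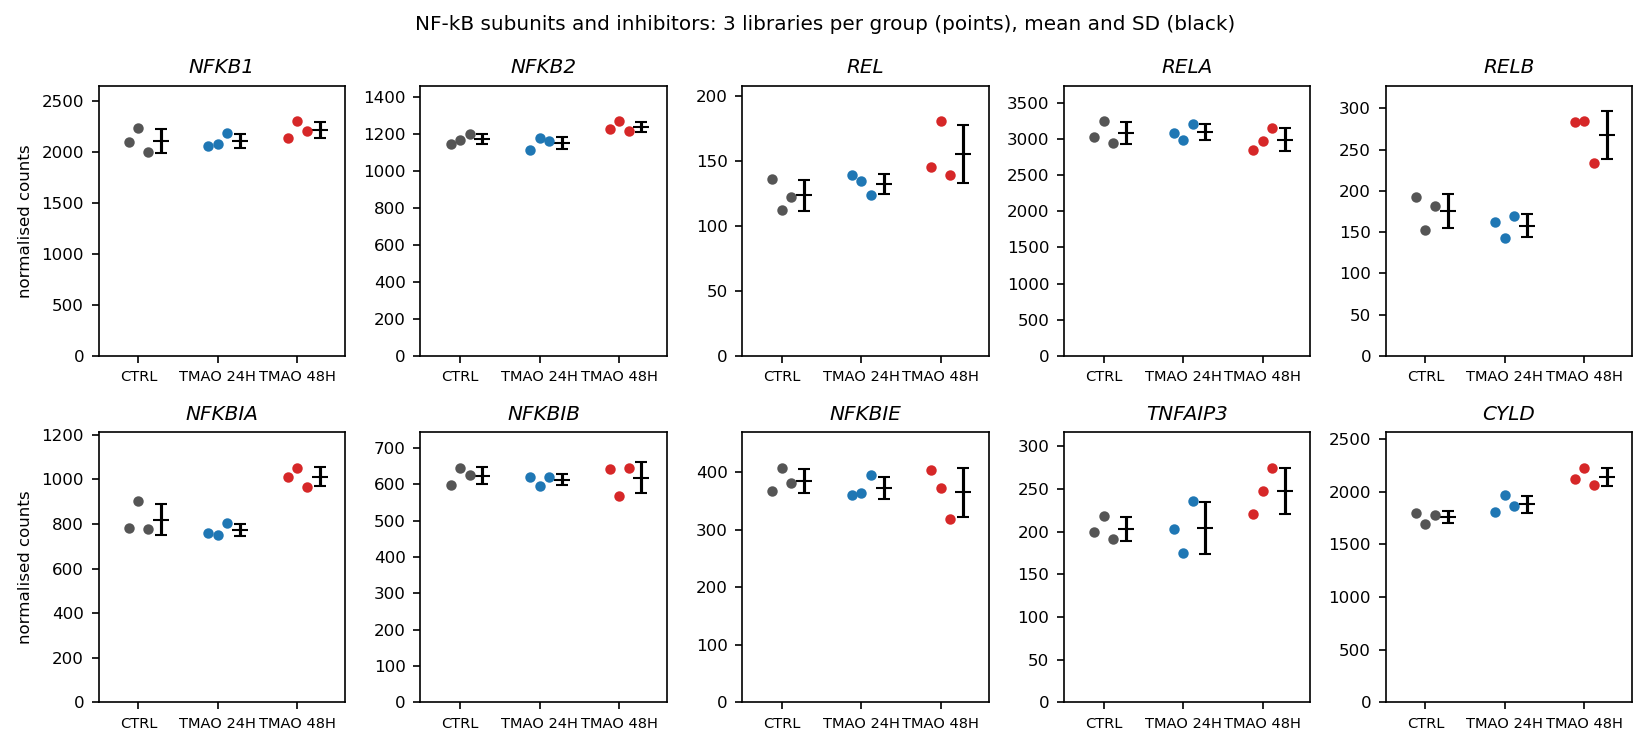
Normalised counts of each member (vertical axis, from 0) in the 3 libraries of CTRL, TMAO 24H and TMAO 48H, with the mean and SD in black. The libraries of TMAO 48H lie above all others for RELB, NFKBIA, CYLD, NFKB2 and REL, whereas the groups overlap for RELA, NFKBIB and NFKBIE. The gap is small for NFKB2 (lowest 1215 at 48H, highest 1200 elsewhere) and REL (139.2 and 138.9). Against controls, and likewise against TMAO 24H, 14.7% of all genes lay higher at 48H without overlap.

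At 48H, 3 of the 10 members were higher than in controls (RELB, NFKBIA and CYLD) and 0 were lower at an edgeR adjusted p under 0.05. Over all tested genes 10.4% were called in either direction and 5.14% higher. RELB was the 1 member that also changed at least 1.4-fold, as 1.80% of all genes did. Before adjustment 5 members were under 0.05 (25.8% of all genes), REL and TNFAIP3 in addition to the 3 called. The 3 libraries at 48H lay above the 3 controls without overlap for 6 members (14.7% of all genes), which were the same 5 and NFKB2. The median log2 fold change of the members was 0.18, beside 0.0040 over all genes. The controls here are those of the comparison at 24H.

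Among the subunits, RELB, the partner of p52 in the non-canonical route, changed the most. Its normalised counts were 192.7, 152.3 and 181.4 in controls, 162.4, 142.4 and 169.2 at 24H and 284, 284.5 and 233.6 at 48H. All 3 libraries at 48H were above the other 6, and the groups of controls and 24H overlapped. RELB was 1.52-fold higher at 48H than in controls (log2 0.61, SE 0.12, 95% interval 0.34 to 0.87, edgeR adjusted p = 0.00791). Relative to RELA in the same library, its normalised count was 0.0636, 0.0469 and 0.0615 in controls, 0.0527, 0.0476 and 0.0527 at 24H and 0.0998, 0.0958 and 0.074 at 48H.

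NFKB2, which encodes the p100 precursor of p52, had 1148, 1166 and 1200 normalised counts in controls, 1111, 1176 and 1164 at 24H and 1226, 1269 and 1215 at 48H. Its libraries at 48H lay just above the rest, but the difference from controls did not pass the test (log2 0.08, SE 0.05, edgeR adjusted p = 0.317). It passed once a trend with transcript GC content was removed (log2 0.17, edgeR adjusted p = 0.0374), and in no other alternative. NFKB1, which encodes p105 and p50, had overlapping groups, with 1996 to 2234 normalised counts in controls, 2059 to 2185 at 24H and 2143 to 2303 at 48H (log2 at 48H 0.07, SE 0.05, edgeR adjusted p = 0.404).

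RELA had 2950 to 3245 normalised counts in controls, 2992 to 3209 at 24H and 2846 to 3156 at 48H. Its log2 fold change at 48H was -0.04 with a 95% interval of -0.15 to 0.07 (edgeR adjusted p = 0.668), or 0.902-fold to 1.05-fold. REL, the c-Rel subunit best known from lymphocytes, had 136.3, 112.5 and 121.9 normalised counts in controls, 138.9, 134.2 and 123.5 at 24H and 145.5, 180.5 and 139.2 at 48H. The libraries at 48H were above the controls, by little in replicates 1 and 3, and the difference did not pass the test (log2 0.33, SE 0.13, 95% interval 0.04 to 0.62, edgeR adjusted p = 0.135). In the GENCODE annotation, 43.3% of the exon bases of REL are shared with AC010733.2, a non-coding gene on the same strand that is not listed in the counts, so that reads of the 2 genes cannot be told apart over that stretch.

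Among the IκB inhibitors, NFKBIA was the 1 gene called. Its normalised counts were 781.7, 901 and 776.8 in controls, 760.7, 752 and 804.8 at 24H and 1012, 1052 and 967.7 at 48H. All libraries at 48H were above the other 6, and control replicate 2 stood closest to them. NFKBIA was 1.23-fold higher at 48H than in controls (log2 0.30, SE 0.07, 95% interval 0.16 to 0.44, edgeR adjusted p = 0.0119). The call was lost without control replicate 1 (edgeR adjusted p = 0.053) and without TMAO 48H replicate 2 (edgeR adjusted p = 0.0632), with log2 fold changes of 0.26 to 0.37 over the 9 fits that each left out 1 library.

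NFKBIB, which encodes IκBβ, did not pass at 48H. It had 598.7 to 646.1 normalised counts in controls, 595 to 621.8 at 24H and 568.9 to 644.4 at 48H (log2 at 48H -0.01, SE 0.07, 95% interval -0.15 to 0.13, edgeR adjusted p = 0.939). The ratio of NFKBIA to NFKBIB within a library was accordingly 1.31, 1.39 and 1.24 in controls, 1.22, 1.26 and 1.3 at 24H and 1.57, 1.85 and 1.5 at 48H. Of the exon bases of NFKBIB, 1.72% lie opposite exons of SIRT2, and the strand setting of the counting is not given in the sources used here. NFKBIE, which encodes IκBε, had 367 to 408.2 normalised counts in controls and 403.9, 372.5 and 318.7 at 48H, the most scattered group of this gene (log2 -0.08, SE 0.09, edgeR adjusted p = 0.646).

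Of the deubiquitinases, CYLD, which removes linear and lysine-63-linked ubiquitin chains from adaptors of the pathway, was called. It had 1794, 1689 and 1782 normalised counts in controls, 1807, 1969 and 1861 at 24H and 2120, 2226 and 2064 at 48H, so that the 3 groups did not overlap. CYLD was 1.22-fold higher at 48H than in controls (log2 0.28, SE 0.05, 95% interval 0.18 to 0.39, edgeR adjusted p = 0.00294). TNFAIP3, which encodes the ubiquitin-editing enzyme A20, had 199.6, 219 and 191.4 normalised counts in controls, 202.8, 175.1 and 236.3 at 24H and 221.2, 247.5 and 275 at 48H. Its libraries at 48H were above the controls but not above all of those at 24H, and the difference from controls did not pass the test (log2 0.29, SE 0.12, 95% interval 0.02 to 0.55, edgeR adjusted p = 0.165). The point estimates of CYLD and TNFAIP3 were therefore of the same size, and the interval was wider for TNFAIP3, which had fewer counts.

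**Figure D3:**
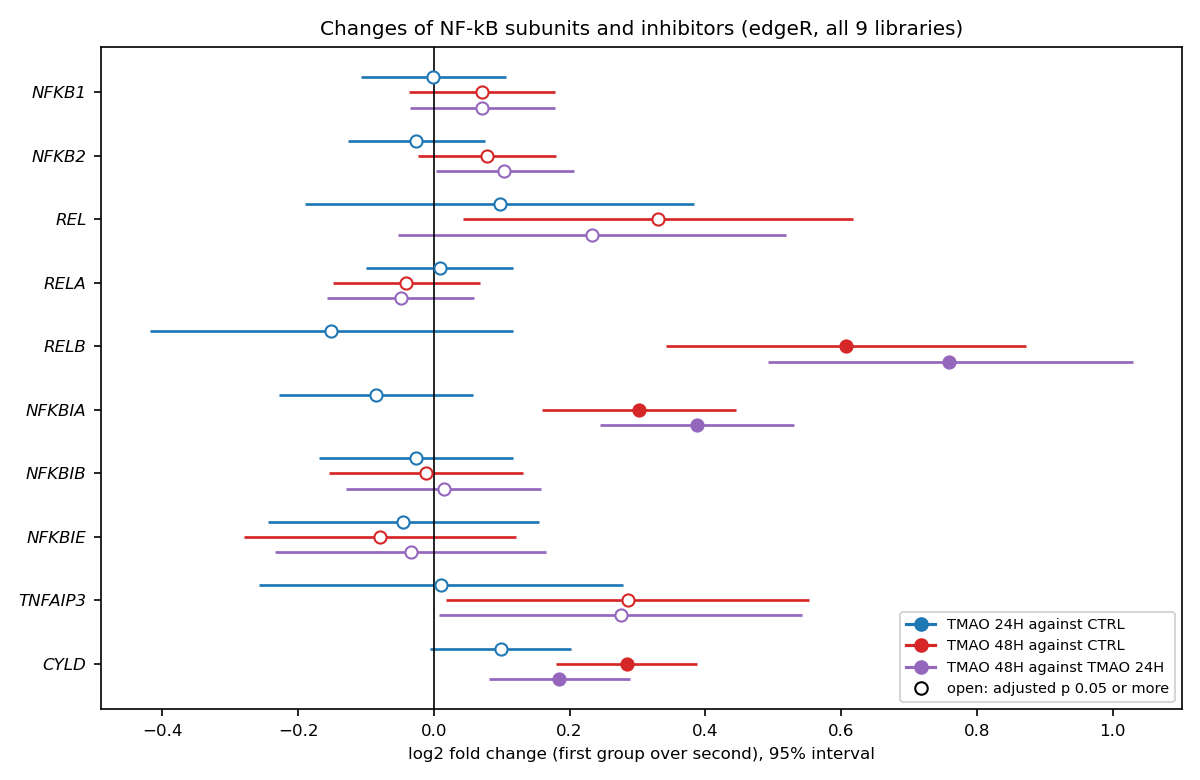
Log2 fold changes of the 10 members in the 3 comparisons (horizontal axis) with 95% intervals from edgeR, filled where the adjusted p was under 0.05. RELB, NFKBIA and CYLD have filled points for TMAO 48H against CTRL and against TMAO 24H, and no point is filled for TMAO 24H against CTRL.

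The treated groups were then compared with each other. This contrast does not use the control levels and includes the difference in time in culture. The same 3 members were higher at 48H than at 24H and 0 were lower at an edgeR adjusted p under 0.05, against 7.53% of all genes in either direction and 3.77% higher. RELB was 1.69-fold higher (log2 0.76, SE 0.12, 95% interval 0.49 to 1.03, edgeR adjusted p = 0.00189) and was again the 1 member past 1.4-fold, as 1.71% of all genes were. NFKBIA was 1.31-fold higher (log2 0.39, SE 0.07, 95% interval 0.25 to 0.53, edgeR adjusted p = 0.00271). CYLD was 1.14-fold higher (log2 0.19, SE 0.05, 95% interval 0.08 to 0.29, edgeR adjusted p = 0.0335). The call of CYLD was lost without TMAO 24H replicate 1 (edgeR adjusted p = 0.157), without TMAO 24H replicate 3 (0.114) and without TMAO 48H replicate 2 (0.146), and under 4 other alternatives with adjusted p between 0.0525 and 0.0798.

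In this comparison 5 members were under 0.05 before adjustment (22.1% of all genes), which were the 3 called, NFKB2 (log2 0.10, SE 0.05, edgeR adjusted p = 0.213) and TNFAIP3 (log2 0.28, SE 0.12, edgeR adjusted p = 0.211). The groups did not overlap for 5 members, all higher at 48H (14.7% of all genes), namely the 3 called, NFKB2 and REL (log2 0.23, SE 0.13, edgeR adjusted p = 0.338). The remaining members had log2 differences of -0.05 (RELA), 0.07 (NFKB1), 0.01 (NFKBIB) and -0.03 (NFKBIE), none of which passed the test. The median over the members was 0.14, beside 0.0040 over all genes.

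The rest of the pathway was described through 4 lists of 114 different genes, of which 98 were tested. At 24H, 0 genes of these lists passed in edgeR. Before adjustment 1 of 18 other IκB family members and inhibitors, 2 of 35 kinases and adaptors, 0 of 16 receptors upstream and 10 of 32 target genes were under 0.05 at 24H, beside 7.24% of all genes, and DESeq2 called 1 gene, IER3 (log2 -0.27, DESeq2 adjusted p = 0.0175). Calls at 48H and between the treated groups are given list by list.

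Among 18 tested genes of the other IκB family members and inhibitors, 2 were higher and 0 lower at 48H than in controls (11.1%, near the share of all genes), with a median log2 fold change of 0.08. These were OTUD7B, a deubiquitinase that opposes the non-canonical route (log2 0.21, SE 0.05, edgeR adjusted p = 0.0181), and ITCH, a ubiquitin ligase that acts with A20 (log2 0.14, SE 0.04, edgeR adjusted p = 0.0277). The nuclear IκB proteins did not pass against controls. NFKBIZ had log2 0.16 (SE 0.12, edgeR adjusted p = 0.433), BCL3 0.09 (SE 0.09, edgeR adjusted p = 0.584) and NFKBID -0.38 (SE 0.18, edgeR adjusted p = 0.214). Between the treated groups NFKBIZ, which encodes IκBζ, was the 1 gene of this list that passed (5.56%, beside 7.53% of all genes). It had 388.7, 356.5 and 348.2 normalised counts at 24H and 408.6, 487 and 596.1 at 48H (log2 0.45, SE 0.12, edgeR adjusted p = 0.0354). The call of OTUD7B was lost without control replicate 1 (edgeR adjusted p = 0.067) and without TMAO 48H replicate 2 (0.0891). That of ITCH was lost when control replicate 1 or 2, TMAO 24H replicate 1 or TMAO 48H replicate 2 was left out (edgeR adjusted p 0.0595 to 0.109), with the replicate block (0.0744), and with GC correction, where its log2 fold change was 0.06 (0.331). That of NFKBIZ was lost when any library of the treated groups except TMAO 48H replicate 1 was left out (edgeR adjusted p 0.0508 to 0.124), and its log2 difference was 0.30 without TMAO 48H replicate 3. With only the 6 libraries compared, the calls of ITCH (edgeR adjusted p = 0.1) and NFKBIZ (0.0551) were also lost, as was ITCH without an expression filter (0.0646).

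Among 35 kinases and adaptors, 3 were higher and 1 was lower at 48H than in controls (11.4%, near the 10.4% of all genes), and the median log2 fold change was 0.0046. CHUK, the IKKα kinase, was higher, with 1244 to 1333 normalised counts in controls and 1413 to 1557 at 48H (log2 0.21, SE 0.05, edgeR adjusted p = 0.0165). The other kinase and the scaffold of the complex did not pass, with log2 -0.03 for IKBKB (SE 0.04, edgeR adjusted p = 0.725) and -0.12 for IKBKG (SE 0.05, edgeR adjusted p = 0.191), and neither did the upstream kinases MAP3K14 (log2 -0.08, edgeR adjusted p = 0.46) and MAP3K7 (log2 0.05, edgeR adjusted p = 0.423). MALT1, a paracaspase that cuts inhibitors of the pathway, was higher (log2 0.18, SE 0.05, edgeR adjusted p = 0.0263), as was FBXW11, part of the ligase that marks IκB for breakdown (log2 0.13, SE 0.04, edgeR adjusted p = 0.0495). CARD10, the scaffold that brings MALT1 to receptors outside the immune system, was lower, with 3491 to 3678 normalised counts in controls, 3598 to 3684 at 24H and 2943 to 3079 at 48H (log2 -0.27, SE 0.04, edgeR adjusted p = 0.000988). Between the treated groups, 1 gene was higher, MALT1 (log2 0.19, edgeR adjusted p = 0.0235), and 1 was lower, CARD10 (log2 -0.28, edgeR adjusted p = 0.000573), which is 5.71% of the list beside 7.53% of all genes. CARD10 passed in every alternative fit, though not at 1.4-fold. Against controls its log2 fold change was -0.274 to -0.152 over the 9 alternatives that did not leave out a single library (edgeR or DESeq2 adjusted p up to 0.0362). The call of CHUK was lost without control replicate 1 (edgeR adjusted p = 0.0666) or 2 (0.0616) and with GC correction (0.131, log2 0.12), and that of MALT1 against controls was lost when any control or TMAO 48H replicate 2 or 3 was left out (0.0553 to 0.0884) and with GC correction (0.173, log2 0.11). At 48H against 24H, MALT1 was lost without TMAO 24H replicate 1 or 3 and TMAO 48H replicate 2 or 3 (0.0553 to 0.106), and against controls FBXW11 was lost whichever library was left out (edgeR adjusted p 0.0566 to 0.173). With only the 6 libraries compared, CHUK (edgeR adjusted p = 0.0546) and MALT1 (0.0715) were also lost against controls. MALT1 was lost without an expression filter against controls (0.0502) and with GC correction at 48H against 24H (0.0709). FBXW11 was also lost with RLE factors (0.0552), the older fit (0.0548), no filter (0.103), 6 libraries (0.137), ribosomal RNA genes removed (0.0616) and GC correction (0.138).

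Among 16 tested receptors upstream, 2 were higher and 0 lower at 48H than in controls (12.5%, near the 10.4% of all genes, with a median log2 of -0.02). TLR3, a sensor of double-stranded RNA, was 1.55-fold higher (log2 0.63, SE 0.10, edgeR adjusted p = 0.00194) and IL1RAP, a co-receptor for interleukin 1, 1.26-fold (log2 0.34, SE 0.07, edgeR adjusted p = 0.00959). Both were also higher at 48H than at 24H (log2 0.43, edgeR adjusted p = 0.0193 for TLR3, and log2 0.49, edgeR adjusted p = 0.000826 for IL1RAP), together with NOD2, a sensor of bacterial peptidoglycan that had low counts, with means of 8.86 at 24H and 22.7 at 48H (log2 1.35, SE 0.37, edgeR adjusted p = 0.0408). These 3 made up 18.8% of the list in that comparison, beside 7.53% of all genes, with a median of 0.07 over the list. TLR3 and IL1RAP passed against controls in every alternative fit, IL1RAP below 1.4-fold. At 48H against 24H, TLR3 was lost without TMAO 24H replicate 1 (edgeR adjusted p = 0.0608) or 3 (0.0903) and without TMAO 48H replicate 2 (0.0838), and NOD2 was lost whichever library except control replicate 3 was left out (0.0585 to 0.155). NOD2 was also lost without an expression filter (edgeR adjusted p = 0.0595) and with only the 6 libraries compared (0.0704).

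Known NF-κB target genes of endothelial cells formed the list with the most calls. At 48H, 7 of its 32 tested genes were higher than in controls and 1 was lower (25%, beside 10.4% of all genes), 25 had a log2 fold change above 0 and 7 below, and the median was 0.21. ICAM1, the leukocyte adhesion molecule, had 656.9 to 727.7 normalised counts in controls, 630.4 to 703.7 at 24H and 1130 to 1276 at 48H (log2 0.78, SE 0.07, edgeR adjusted p = 2.09e-05). CCL2, a monocyte chemoattractant, had 214.2 to 254.9 in controls, 198.3 to 214.9 at 24H and 365.5 to 411.9 at 48H (log2 0.71, SE 0.09, edgeR adjusted p = 0.00058). The cytokine gene IL32 was 1.51-fold higher (log2 0.59, SE 0.12, edgeR adjusted p = 0.00612), and PDGFB, a growth factor, was lower (log2 -0.22, SE 0.06, edgeR adjusted p = 0.0245). At 24H, 24 of the 32 genes had a log2 fold change below 0, as did 7397 of the 14740 tested genes, and the median was -0.13, with 0 calls. ICAM1, CCL2 and IL32 passed in every alternative fit. PDGFB was lost without control replicate 1 or 2 and without TMAO 48H replicate 1 or 2 (edgeR adjusted p 0.0518 to 0.0955) and with GC correction (0.147, log2 -0.14). The list's calls were 5 higher and 0 lower without control replicate 1, without control replicate 2, without TMAO 48H replicate 1 and with the replicate block.

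Between the treated groups, 12 of the 32 target genes were higher at 48H and 0 were lower (37.5%, beside 7.53% of all genes), with a median log2 difference of 0.38. The largest was the chemokine CXCL2, with 11.2, 15.42 and 10.74 normalised counts at 24H and 30.26, 39.63 and 23.01 at 48H (log2 1.31, SE 0.29, edgeR adjusted p = 0.0151). Its controls, at 24.89 to 26.28, lay close to the values at 48H. CCL5 (log2 1.10, SE 0.24, edgeR adjusted p = 0.0129) and IL6 (log2 1.10, SE 0.20, edgeR adjusted p = 0.00494) followed. The normalised counts of IL6, a cytokine, were 66.2 to 83.62 in controls, 38.09 to 48.34 at 24H and 66.93 to 111.6 at 48H, so that controls and 48H overlapped. IL6 passed in every alternative fit, whereas CXCL2 was lost without TMAO 24H replicate 1 (edgeR adjusted p = 0.0605) or 3 (0.0727) and without TMAO 48H replicate 2 (0.0916), and CCL5 without TMAO 24H replicate 3 (0.0673). The comparison between treated groups shares its libraries at 24H and 48H with the comparisons against controls. The study itself named ICAM1, CCL2 and IL6 as higher at 48H, from these libraries and by RT-qPCR. Here IL6 did not pass at 48H against controls (log2 0.30, SE 0.20, edgeR adjusted p = 0.367). In all, 16 listed genes were too low to be tested, among them the adhesion molecule SELE and the chemokine CXCL10.

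**Figure D4:**
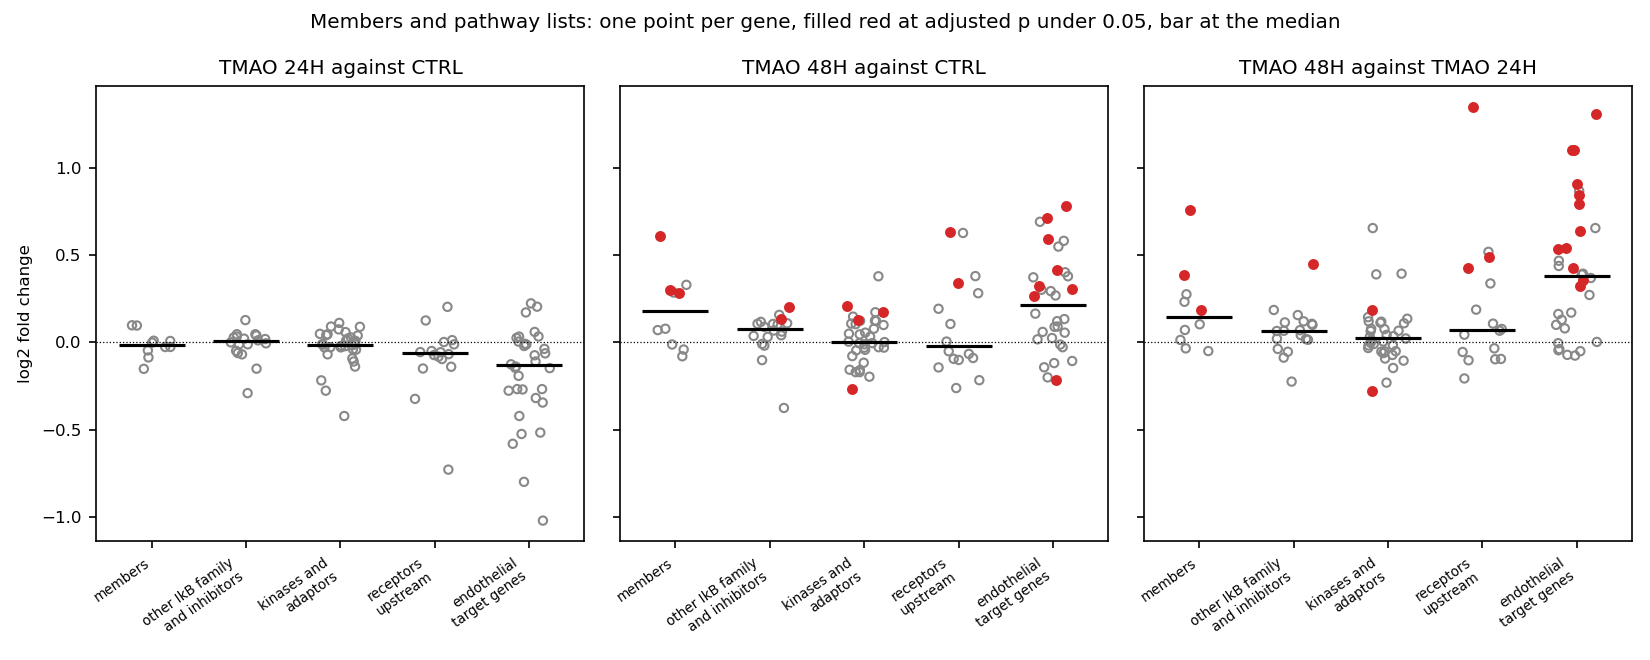
Log2 fold changes (vertical axis) of the 10 members and of the tested genes of 4 pathway lists in the 3 comparisons, with 1 point per gene, filled red at an edgeR adjusted p under 0.05, and a bar at the median. The target genes have medians of -0.13 at 24H and 0.21 at 48H against controls, and 0.38 between the treated groups.

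The pattern of each member over the 9 libraries was compared with that of 12319 other genes with a mean normalised count of at least 50, by Pearson's r of log2 CPM, as a description. The 9 libraries share 3 groups, so that genes with a difference at 48H resemble each other. The closest genes were picked as the highest r among 12319 genes, a choice that by itself favours high values. RELB was most like CREBRF (r = 0.971), BTBD3 (0.964) and TOPORS (0.96). NFKBIA was most like HLA-C (r = 0.977), RNF41 (0.976) and PPP1R15A (0.975), and CYLD most like TXNIP (r = 0.985), PREPL (0.983) and TTC37 (0.978). NFKB2 was most like TGFBR3 (r = 0.96), LIF (0.959) and ZNF544 (0.957), and the closest genes were RAB27A for REL (0.949), KRT80 for TNFAIP3 (0.93), ZNF629 for NFKB1 (0.982), EHD2 for RELA (0.944), HIGD2A for NFKBIB (0.916) and LARP6 for NFKBIE (0.939). Between members, r over the 9 libraries was 0.839 for RELB with NFKBIA, 0.846 for REL with CYLD and 0.799 for NFKB2 with NFKBIA, while RELB and RELA had r = -0.515 and REL and NFKBIB -0.641.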

How the data were processed

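Total RNA of HMEC-1 was sequenced in 9 libraries, 3 each of CTRL, TMAO 24H and TMAO 48H, grouped by the labels. The authors ran nf-core RNAseq (3.6) and, per the labels, Trim Galore. They deposited expected counts (estimated read counts that need not be whole) without normalisation. The quantifier, genome build, annotation and strand setting are not given in the sources used here.

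The deposited expected counts were rounded and analysed in R 4.3.3 with edgeR 4.0.16 (filterByExpr, TMM, glmQLFit with legacy = FALSE on all 9 libraries, Benjamini-Hochberg adjustment over 14740 genes). A gene was called at an adjusted p-value under 0.05. The SE was the log2 fold change divided by the square root of F. A normalised count is the TMM-scaled CPM times the mean effective library size. With 3 libraries against 3 an exact permutation test cannot go below p = 0.1, so p-values come from edgeR. The common biological coefficient of variation was 0.0744, and the members' median 95% interval reached 0.143 to either side on the log2 scale. Intervals cover the spread between libraries. Transcript lengths and GC content (13253 tested genes, 89.9%) came from GENCODE and promoters from RefSeq.

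All 10 members are named. From the lists, the IKK subunits, MAP3K14, MAP3K7, BCL3, NFKBIZ and NFKBID are named always, with up to 3 called genes per list, direction and comparison. For likeness of pattern, 3 genes per member were taken. IER3, SELE, CXCL10, CD3E and other single genes outside this rule were chosen after their values were seen. Members and lists were chosen with earlier results of these data known. Alternatives were DESeq2 1.42.0 (the study's tool), RLE factors, other filters, the older quasi-likelihood fit, only the 6 libraries compared, the replicate number as a block, removal of ribosomal RNA genes, GC correction, the median transcript length, the 1.4-fold threshold and leaving out each library. On simulated data for TMAO 48H against CTRL (14600 genes tested), edgeR recovered 90 of 100 genes changed 2-fold and 80 of 100 changed 1.5-fold, with 6 false calls. Every simulated gene was given the same biological variation. Smaller changes, such as those of NFKBIA and CYLD, were not simulated. RT-qPCR, ROS, viability and metabolite measurements were not analysed here.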

Additional observations from a re-analysis of the deposited data

Results flagged for a closer look

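For 3 members the treated groups differed from each other in edgeR, a contrast in which the time of treatment and the time in culture cannot be told apart. The log2 difference, 48H minus 24H, was 0.759 for RELB (edgeR adjusted p = 0.00189), 0.388 for NFKBIA (edgeR adjusted p = 0.00271) and 0.185 for CYLD (edgeR adjusted p = 0.0335). All 3 libraries at 48H were above all 3 at 24H for each gene. CYLD was already above its controls in 3 of 3 libraries at 24H without passing the test, whereas the means of RELB (158 against 175.5 normalised counts) and NFKBIA (772.5 against 819.8) were below theirs.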

How the results depend on the processing

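RELB at 48H passed in every alternative fit with edgeR or DESeq2 and at 1.4-fold, against controls (adjusted p 0.000801 to 0.0193, and up to 0.0443 without 1 library) and against 24H, and CYLD against controls and NFKBIA against 24H passed in every alternative fit but not at 1.4-fold. Against controls at 48H, 1 member passed with the 1.4-fold threshold, likewise 1 between the treated groups, and leaving out 1 library gave 2 to 3 members in each. Over all genes, calls at 24H were 14, against 56 with DESeq2, 22 with only the 6 libraries compared, 1 with the replicate block and 7 at 1.4-fold, and 0 to 24 without 1 library (0 without TMAO 24H replicate 2). At 48H they were 1537, against 981 with 6 libraries, 948 with the block and 265 at 1.4-fold, and 700 to 1595 without 1 library (700 without TMAO 48H replicate 2, 784 and 952 without control replicates 2 and 1). Between the treated groups they were 1110, against 731 with the block and 252 at 1.4-fold, and 558 to 1281 without 1 library (586 without TMAO 48H replicate 2, and 653, 692 and 558 without TMAO 24H replicates 1, 2 and 3). Of the pathway genes, 1 passed at 24H with DESeq2, and 16 passed at 48H against 10 with 6 libraries, 10 with the block and 8 to 16 without 1 library (8 and 9 without control replicates 1 and 2, 10 without TMAO 48H replicate 2). In the comparison of the treated groups 18 passed, and 10 to 19 without 1 library (10 without TMAO 24H replicate 3, 11 without TMAO 48H replicate 2). Of 21 named calls of these genes, 9 held in every alternative fit, 12 were lost in at least 1 and 0 reversed. The cause of these shifts was not tested. Where a library was left out, fewer libraries and the loss of that library cannot be told apart.

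The labels do not say whether libraries with the same replicate number were paired. Deviations of same-numbered libraries correlated with r between -0.12 and 0.0908, and those of differently numbered ones with r between -0.0996 and 0.159. With 3 libraries per group, these correlations cannot decide whether the libraries were paired. With the replicate block the call of CYLD between the treated groups was lost (edgeR adjusted p = 0.0798), the calls of PDGFB, MALT1, FBXW11, ITCH, NFKBIZ and NOD2 were lost (0.0583 to 0.0956), and NFKB1 at 24H had a log2 fold change of 0.000285. The call of CYLD was also lost without an expression filter (0.0586), with 6 libraries (0.0525) and with GC correction (0.0706).

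Reversals concerned members with differences near 0 that did not pass in any fit. NFKB1 at 24H became 0.00232 with DESeq2, 0.00189 with RLE factors and 0.00215 without ribosomal RNA genes. With GC correction, log2 values became 0.0211 (NFKB2, 24H), 0.00938 (NFKBIB, 24H), 0.00879 (RELA, 48H), 0.0658 (NFKBIB, 48H), 0.00499 (NFKBIE, 48H) and 0.0126 (NFKBIE, 48H against 24H). Without 1 library, values spanned 0 at 24H for NFKB1 (-0.0365 to 0.0421), RELA (-0.0187 to 0.0487) and TNFAIP3 (-0.107 to 0.112), at 48H for RELA (-0.0805 to 6.22e-05), NFKBIB (-0.041 to 0.0462) and NFKBIE (-0.157 to 0.00961), and between the treated groups for NFKBIB (-0.0148 to 0.0723) and NFKBIE (-0.112 to 0.0551).

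With the median transcript length, control levels per kilobase were 3060 (NFKB1), 1380 (NFKB2), 51.5 (REL), 4450 (RELA), 209 (RELB), 1020 (NFKBIA), 580 (NFKBIB), 222 (NFKBIE), 126 (TNFAIP3) and 619 (CYLD). The small counts of REL, RELB and TNFAIP3 limit the precision of these members.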
